A study of Mus musculus with 10 samples.

Results

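Genes whose transcripts are abundant in the striatum or in the choroid plexus, both of which lie close to the cerebral cortex and can be taken with it at dissection, were examined in the cortex of every mouse of the study. The genes were 7 with high expression in striatal medium spiny neurons (Ppp1r1b, Drd1, Drd2, Adora2a, Penk, Tac1 and Rgs9) and 3 with high expression in choroid plexus epithelium (Ttr, Kl and Folr1). They were chosen by name, and every probe set that the platform annotation gives to 1 of them was used. Of the 10 genes, 8 were measured, by 12 probe sets of the 22626 tested (12393 genes). Drd1 and Adora2a, the receptors for dopamine and adenosine that mark the direct and the indirect striatal pathway, had no probe set named to them in that annotation and were not analysed here.

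Cerebral cortex RNA of 5 male mice labelled null and 5 male mice labelled wild type, all 6 months old, was hybridised to Affymetrix mouse expression arrays, 1 per mouse. Mice labelled null are p97FE65 null, lacking the full-length isoform of FE65 (Apbb1), an adaptor of the amyloid precursor protein, and mice labelled wild type are p97FE65 wild type littermates. The line was made in R1 ES cells, a hybrid of substrains of another strain, and crossed back to C57Bl/6J over 10 generations. Null mice still carry sequence of the ES cell strain beside the FE65 locus on chromosome 7. Which arrays come from littermates is not given. Each array is 1 mouse, so the spread within a label includes that between mice. The labels could not be taken as the settled genotype: a Gprc5b probe set that the study followed up averaged 6.16 on the arrays labelled null and 7.39 on those labelled wild type, a direction opposite to that in the study's own account. All signed values below are labelled null minus labelled wild type, on the log2 scale, and would change sign if the labels were turned.

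Medium spiny neurons are the projection neurons of the striatum. They answer dopamine from the midbrain through a signalling cascade in which Ppp1r1b, Rgs9 and the dopamine receptors take part, and they release GABA together with peptides made from Penk or Tac1. Penk, Tac1 and Rgs9 are also made by some cortical cells, the peptides mostly by interneurons, so a signal from them in cortex is not by itself a sign of striatum. The choroid plexus hangs in the ventricles, secretes cerebrospinal fluid, and makes Ttr, the carrier of thyroxine and retinol-binding protein, in amounts that exceed those of almost any other brain tissue.

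Of 16 genes of cortical excitatory neurons, 13 were measured. Of these 13, 6 had a mean of at least 5, among them Lmo4 (mean 11.1, log2), Neurod6 (8.84), Ccn2 (8.28) and Tbr1 (7.70), which were bright on every array, and 5 had a mean under 4: Cux1 (3.50), Bcl11b (3.31), Fezf2 (2.48), Rasgrf2 (2.12) and Foxp2 (1.598). Array medians lay between 3.01 and 3.14 and correlations between arrays between 0.994 and 0.999. Some arrays stood apart over the whole table. Of the 7827 probe sets with a mean of at least 5, null 5 was the highest array for 26.9% and wild type 2 for 22.5%, and of the 13461 with a mean under 4, wild type 2 was the highest for 27.2% and null 4 for 20.4%. A gene that is high in one of these mice was therefore read against these shares.

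No striatal or choroid plexus gene passed the test of a difference between the labels. Of the 12 probe sets, 0 passed an adjusted limma p of 0.05 and 0 an unadjusted limma p of 0.05, against 0% and 3.67% of all 22626 probe sets. In none did the arrays of one label lie wholly above those of the other, against 0.623% of all. The lowest adjusted p of the 12 was 0.999 (limma, Benjamini-Hochberg), and 3 probe sets were higher and 9 lower in null. The median difference, with 1 probe set a gene, was -0.07 over the striatal genes and -0.000979 over the choroid plexus genes, beside -0.000355 over all probe sets. Both medians depended on single mice. The striatal one was -0.24 without wild type 1, -0.21 without null 5, -0.01 without null 1, and positive without wild type 2 (0.0058) or wild type 3 (0.0049), and the choroid plexus one was 0.07 without null 1 or wild type 1 and 0.06 without wild type 4. Of the 12, 4 (Penk, Tac1, Rgs9 1418691_at and Ttr 1454608_x_at) had a mean of at least 5, Ppp1r1b lay just under it, and the other 7 had means under 3, where background makes up much of the value and a difference between mice can be compressed. In cortex taken as a whole, fewer cells of a type and less RNA per cell cannot be told apart.

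**Figure D1:**
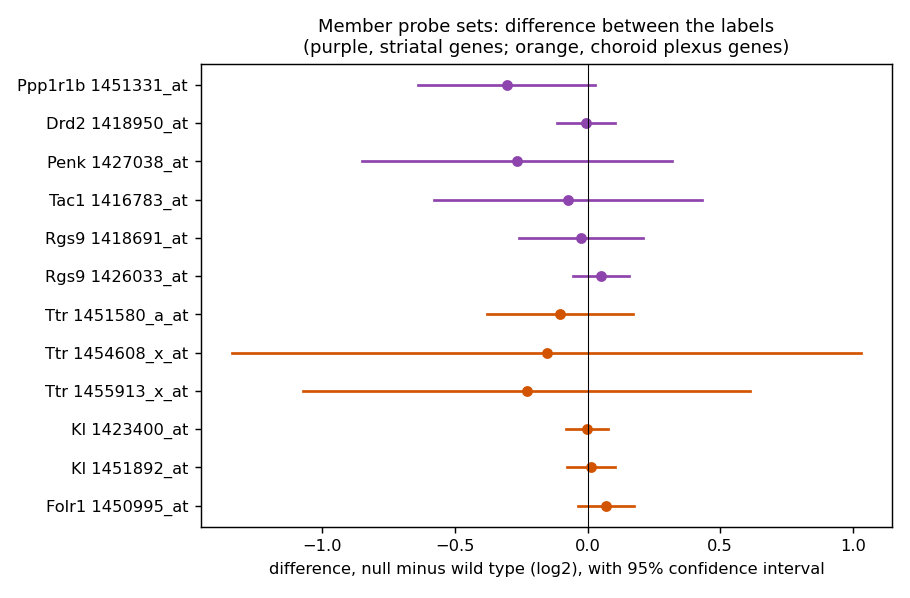
Difference between the labels, null minus wild type (x axis, log2), for each of the 12 probe sets (y axis), with 95% confidence intervals from limma. Every interval includes 0, and the widest, of Ttr 1454608_x_at, runs from -1.34 to 1.03.

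Ppp1r1b encodes a phosphoprotein that, once phosphorylated after dopamine signalling, inhibits protein phosphatase. Its probe set 1451331_at read 4.75, 4.86, 4.79, 5.18 and 4.56 in null 1 to 5, against 5.24, 4.86, 5.60, 5.06 and 4.90 in wild type 1 to 5 (log2). Wild type 3 was the highest mouse, null 5 the lowest, and the labels overlapped. The means were 4.83 ± 0.22 in null and 5.13 ± 0.30 in wild type (SD, n = 5 each), a difference of -0.31 (SE 0.15, 95% interval -0.64 to 0.03). Among the 12 this came closest to a difference, with an unadjusted limma p of 0.0690 and an exact two-sided permutation p of 0.103, where the smallest that 5 mice against 5 can give is 0.00794. Without wild type 3 the difference was -0.19.

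Drd2, the inhibitory dopamine receptor of the indirect pathway, is largely restricted to the striatum within the forebrain. It lay between 1.79 and 2.01 in null and between 1.84 and 1.94 in wild type, a difference of -0.0044 (SE 0.05), with an exact permutation p of 0.960. Its mean exceeded that of only 23.2% of all probe sets. No mouse stood out from the others, and at so low a signal a small change would not have been detectable.

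Penk encodes proenkephalin, the precursor of the enkephalin peptides. Probe set 1427038_at read 6.33, 6.22, 6.36, 6.01 and 6.55 in null 1 to 5, against 6.26, 6.42, 7.69, 6.14 and 6.29 in wild type 1 to 5. One mouse, wild type 3, lay more than 1 log2 unit above the next, and the other 9 lay between 6.01 and 6.55. The means were 6.29 ± 0.20 in null and 6.56 ± 0.64 in wild type (SD, n = 5 each), a difference of -0.27 (SE 0.26, exact permutation p = 0.571). Without wild type 3 the difference was 0.02, and the SD within the labels was 0.168 in place of 0.474.

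Tac1 encodes the precursor of substance P and neurokinin A. It read 6.68, 7.36, 7.29, 7.01 and 7.78 in null 1 to 5, against 6.62, 7.68, 7.56, 7.29 and 7.33 in wild type 1 to 5. Null 5 and wild type 2 were highest, the mice that were also highest over much of the table, and null 1 and wild type 1 were lowest. The means were 7.22 ± 0.41 in null and 7.30 ± 0.41 in wild type (SD, n = 5 each), a difference of -0.07 (SE 0.23, exact permutation p = 0.794). The part of those mice's general level in the Tac1 values was not tested.

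Rgs9 speeds the return of G proteins to their inactive state after dopamine and opioid receptors have fired. Probe set 1418691_at read 6.93, 6.97, 7.16, 7.03 and 6.74 in null 1 to 5, against 6.87, 7.28, 7.12, 6.90 and 6.77 in wild type 1 to 5. The mice lay close together, with a range of 0.53, and the means of 6.96 ± 0.15 in null and 6.99 ± 0.21 in wild type (SD, n = 5 each) differed by -0.02 (SE 0.11, exact permutation p = 0.865). The other Rgs9 probe set, 1426033_at, was dim, at 2.55 to 2.74 in null and 2.52 to 2.66 in wild type, and differed by 0.05 (SE 0.05, exact permutation p = 0.254).

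**Figure D2:**
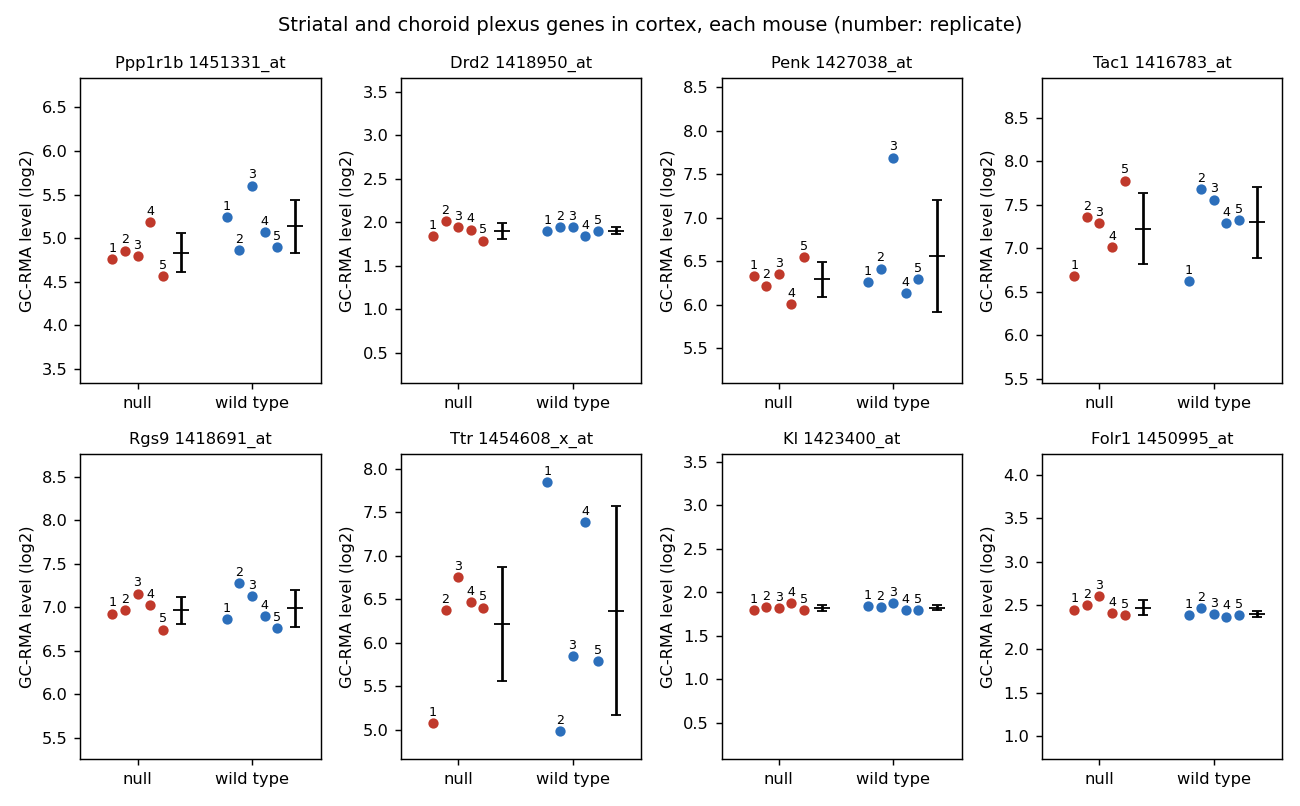
Level of each measured gene in each mouse (y axis, GC-RMA value on the log2 scale; brightest probe set of a gene), with null left of wild type, the replicate number above each point, and bars for mean ± SD (n = 5 each). All panels span the same number of log2 units. Penk is 7.69 in wild type 3 and at most 6.55 elsewhere, and Ttr runs between 4.99 and 7.84.

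Ttr varied most of all. Probe set 1454608_x_at read 5.08, 6.37, 6.75, 6.47 and 6.40 in null 1 to 5, against 7.84, 4.99, 5.84, 7.39 and 5.79 in wild type 1 to 5. Wild type 1 and wild type 4 were highest and wild type 2 and null 1 lowest, so that the wild type mice spanned the whole range and the null mice, null 1 apart, lay in its middle. The means were 6.22 ± 0.65 in null and 6.37 ± 1.20 in wild type (SD, n = 5 each), a difference of -0.15 (SE 0.53, exact permutation p = 0.794). From the lowest to the highest mouse the level changed by 2.85 log2 units, or 7.23-fold.

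The dimmer Ttr probe sets gave the same mice as highest. Probe set 1455913_x_at read 1.68, 1.996, 2.01, 1.82 and 2.38 in null 1 to 5, against 3.12, 1.38, 1.54, 3.31 and 1.66 in wild type 1 to 5, a difference of -0.23 (SE 0.38, exact permutation p = 0.571). Probe set 1451580_a_at lay between 1.82 and 2.08 in null and between 1.82 and 2.43 in wild type, a difference of -0.10 (SE 0.12, exact permutation p = 0.444). Wild type 1 and wild type 4 were the highest mice on all 3 probe sets. Over the 10 mice the 3 probe sets correlated pairwise with r between 0.877 and 0.933 and rho between 0.782 and 0.879, given as a description since they read transcripts of 1 gene on the same arrays. The suffix x marks probes that can also bind other transcripts, and 2 of the 3 probe sets were dim.

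**Figure D3:**
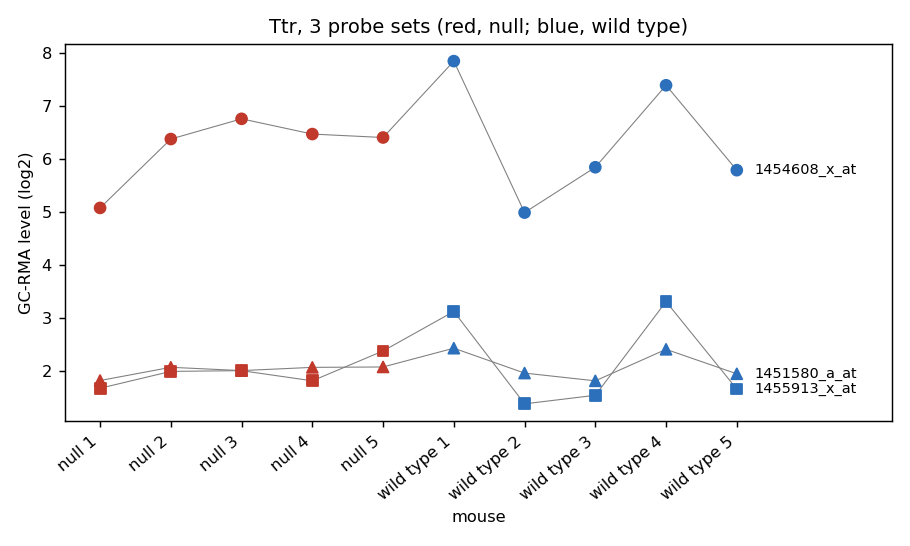
Level of the 3 Ttr probe sets (y axis, GC-RMA value on the log2 scale) in each of the 10 mice (x axis), null (red) left of wild type (blue). The lines only join the values of a probe set. Wild type 1 and wild type 4 are the highest mice on each probe set, at 7.84 and 7.39 on the brightest.

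The other choroid plexus genes that were chosen by name stayed near background. Kl, the klotho co-receptor for a fibroblast growth factor, lay between 1.79 and 1.88 in null and between 1.79 and 1.87 in wild type (1423400_at), and between 1.46 and 1.57 in null and 1.42 and 1.55 in wild type (1451892_at). Folr1, the folate receptor that carries folate into cerebrospinal fluid, read 2.45, 2.504, 2.61, 2.42 and 2.39 in null 1 to 5, against 2.39, 2.47, 2.40, 2.37 and 2.39 in wild type 1 to 5. Neither gene was higher in wild type 1 or wild type 4 than in the other mice, and the differences of -0.000979 for Kl 1423400_at (SE 0.04), 0.01 for Kl 1451892_at and 0.07 for Folr1 (SE 0.05, exact permutation p = 0.119) lay within the spread. Folr1 lies on chromosome 7, in gene order between Homer2 and Apbb1, in the stretch near FE65 where sequence of the ES cell strain could remain, and whether strain sequence touches its probes was not tested.

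Beside the other genes of the array, Ttr and Penk varied widely between mice of a label. The SD within the labels was 0.965 for Ttr 1454608_x_at, rank 3 of the 7827 probe sets with a mean of at least 5, 0.474 for Penk (rank 226, above 97.1% of them) and 0.409 for Tac1 (rank 412, above 94.7%). The median of these probe sets was 0.180. Rgs9 1418691_at, with 0.182, lay at the 50.8th percentile, and Ppp1r1b, with 0.266, would lie at the 78.0th. Penk owed its place to 1 mouse, since without wild type 3 its SD was 0.168.

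**Figure D4:**
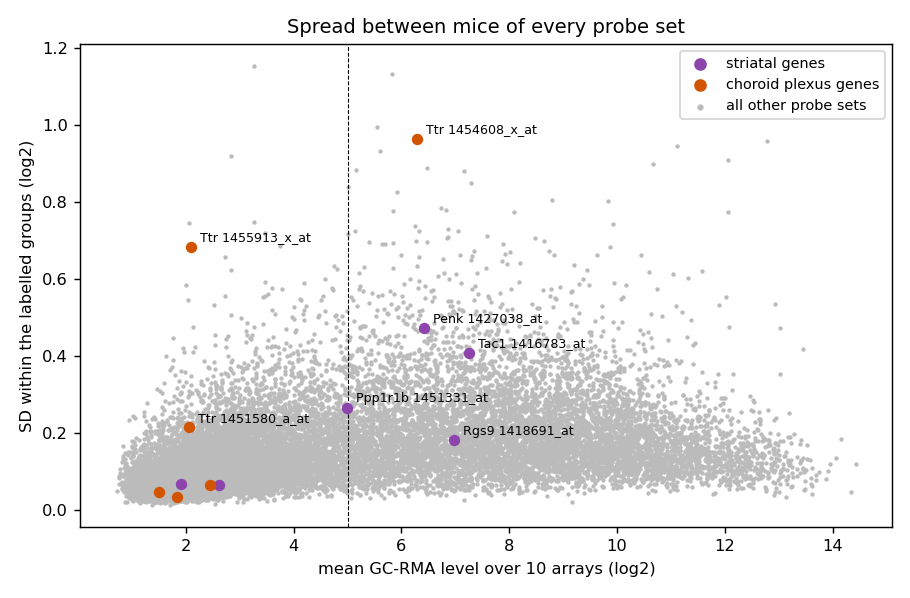
SD within the labels (y axis, log2) against the mean over the 10 arrays (x axis, GC-RMA value, log2) of every probe set, with the striatal genes in purple and the choroid plexus genes in orange. The dashed line marks a mean of 5. Ttr 1454608_x_at, at an SD of 0.965, lies among the highest, and Rgs9 1418691_at, at 0.182, in the middle.

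Whether the striatal genes went up and down together over the mice was examined next. The mean deviation of the 5 measured striatal genes from their means over the 10 arrays was -0.20, -0.03, -0.00, -0.08 and -0.02 in null 1 to 5, against -0.13, 0.13, 0.47, -0.06 and -0.07 in wild type 1 to 5. Wild type 3 was the highest mouse, by Penk (7.69) and Ppp1r1b (5.60), both at their highest there, while Tac1 and Rgs9 were each at place 3 of 10 in that mouse and Drd2 at place 4. The mean deviation of the 3 choroid plexus genes was -0.41, 0.05, 0.21, 0.07 and 0.01 in null 1 to 5, against 0.51, -0.42, -0.15, 0.33 and -0.20 in wild type 1 to 5, and followed Ttr, the member with a wide range. The SD of the striatal mean was 0.0812 in null and 0.248 in wild type and that of the choroid plexus mean 0.233 in null and 0.389 in wild type, a difference in spread that was not tested.

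Between genes, 28 pairs were correlated over the 10 mice, and 0 passed an adjusted permutation p of 0.05, the lowest being 0.394 for r and 0.146 for rho (100000 permutations, Benjamini-Hochberg over the 28). Penk and Ppp1r1b had r = 0.52 (permutation p = 0.131) but rho = -0.25 (permutation p = 0.492). Without wild type 3 their r was -0.80, and without the 2 mice farthest from the median of Ppp1r1b, wild type 3 and wild type 1, it was -0.94, so the positive r rested on wild type 3 alone. Penk and Tac1 had r = 0.41 (permutation p = 0.288) and rho = 0.64 (permutation p = 0.0540), and r = 0.48 without the 2 farthest mice. Among the 10 pairs of the 5 brighter genes the other r values ran from -0.34 (Rgs9 and Ttr) to 0.27 (Penk and Rgs9). The lowest unadjusted p for rho was that of Drd2 and Folr1, a striatal and a choroid plexus gene. They had rho = 0.78 (permutation p = 0.0103, adjusted 0.146) and r = 0.53 (permutation p = 0.114), or r = 0.42 without null 5 and null 2. Drd2 and Rgs9 had the same rho of 0.78 (permutation p = 0.0104, adjusted 0.146). Their r was 0.60 (permutation p = 0.0668), or 0.68 without null 5 and null 2. Drd2 and Folr1 are dim.

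The wider lists of both tissues were read for the same mice. Of 30 further genes with high striatal expression, 21 were measured and 6 had a mean of at least 5: Tmem158, Meis2, Ptpn5, Strn, Pde1b and Rasd2. Wild type 3 was highest for 1 of these 6, Pde1b, the calmodulin-dependent phosphodiesterase (6.54, next 6.44), where 10.6% of all probe sets with a mean of at least 5 were highest in that mouse. Wild type 3 was level with the highest mouse for Rasd2 (6.06 in both) and near the top for Tmem158 (8.93, highest 9.12). For Meis2 it read 7.99, the highest of the wild type mice, beside 7.996 in null 2 and 8.60 in null 1, the highest mouse. It was near the bottom for Strn (6.92, lowest 6.90, highest 7.34). For Ptpn5, the striatum-enriched phosphatase, it was at place 9 of 10 (7.65). Of the 21, 0 passed an adjusted limma p of 0.05. At an unadjusted limma p of 0.05, 2 were higher, Rarb (0.16) and Oprm1 (0.17), both dim, where 3.67% of all 22626 probe sets passed. The median difference of the 21 was 0.00408. Of 27 further choroid plexus genes, 21 were measured and all 21 had means under 4, the highest being Ace at 3.23. Their average level lay between 2.003 and 2.13 in null and between 1.999 and 2.21 in wild type. Wild type 1 was the highest mouse for 0 and wild type 4 for 1 (Htr2c) of these 21, where they were highest for 5.30% and 5.42% of all probe sets with a mean under 4. Wild type 2, which had the lowest Ttr, was the highest for 11 of them, among them Cldn3, a tight junction protein (3.41), and Lbp (3.18), and it was the highest for 27.2% of all dim probe sets. None of the 21 passed an unadjusted limma p of 0.05. Of 6 measured ependymal genes, which line the ventricles, all had means under 4, and Foxj1, the regulator of motile cilia, had the highest mean at 3.004.

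Genes of other neighbours of the dissected cortex were also read mouse by mouse. In wild type 3, the mouse with high Penk, 7 of 8 measured myelin genes were at their highest, where 10.6% of all probe sets with a mean of at least 5 were highest in that mouse. Mobp, a structural myelin protein, read 11.80 there and at most 11.15 elsewhere, Mal 10.66 and at most 10.01, and Mog 5.81 and at most 5.25. The average level of the 8 myelin genes lay between 9.15 and 9.67 in null and between 9.42 and 10.1 in wild type. The 10 probe sets most alike to Penk over the mice began with Fth1 (r = 0.97), Ppargc1a (0.95) and Tbl1xr1 (0.95). Scamp1, Igf2r, Clasp2, Selenop and Nek7 were also among them. From the myelin list they held only Mal, at rank 8 (0.91), and an Mbp probe set, at rank 10 (0.91). This is a description over 10 arrays that rests on wild type 3. Of the 8 myelin genes 2 were lower in null at an unadjusted limma p of 0.05, Mbp (-0.23) and Cldn11 (-0.52), and 0 were higher. Of all 22626 probe sets 3.67% passed that threshold. Mbp was at most 13.8667 in null and at least 13.8695 in wild type (exact permutation p = 0.00794), and 0.623% of all probe sets likewise did not overlap. For Cldn11 the exact permutation p was 0.0556. All 8 had means of at least 5, and the part of myelin RNA in the Penk value was not tested.

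Null 1, the mouse with the lowest Tac1 among null and a low Ttr, was the highest for 5 of 7 measured olfactory bulb genes. Doc2g, of mitral and tufted cells, read 5.37 there and at most 3.22 elsewhere, Cdhr1, a cadherin of the same cells, 5.29 and at most 3.03, and Eomes 2.82 and at most 1.98. The average level of the 7 lay between 3.51 and 4.57 in null and between 3.43 and 3.61 in wild type. Over all probe sets with a mean under 4, null 1 was the highest for 5.22%. Of those with a mean of at least 5, as Reln among the 5 genes has, null 1 was the highest for 6.50%. Meis2, which is expressed in striatum and in olfactory interneurons alike, was also highest there, at 8.60 (next 7.996). Penk, Rgs9 and Ppp1r1b did not stand out in that mouse, at 6.33, 6.93 and 4.75.

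Null 5, the highest for Tac1, was also the highest for 2 of 3 thalamic genes with a mean of at least 5. These were Slc17a6, a vesicular glutamate transporter of thalamic neurons (8.20, next 7.43), and Ntng1 (7.10, next 6.76). Zic1, the brightest of the 3, read only 7.20 in null 5 and was highest in null 1 (8.03). Of all probe sets with a mean of at least 5, 26.9% were highest in null 5. Wild type 2 was the highest for Ogn, a proteoglycan of the meninges (8.09, next 7.38), where 22.5% of all probe sets with a mean of at least 5 were highest in that mouse, which also had the lowest Ttr. The other leptomeningeal genes with a mean of at least 5 had other highest mice, null 4 for Ptgds, the prostaglandin D synthase of the meninges (13.14), and wild type 3 for Bgn (8.01) and Igfbp2 (6.70). The 3 hippocampal genes with such a mean, Wfs1, Zbtb20 and Tdo2, were highest in null 5 (9.48), wild type 2 (8.09) and null 3 (5.64). Of 16 leptomeningeal genes, all measured, 0 were higher and 1 was lower in null at an unadjusted limma p of 0.05, Igfbp2 (-0.27, SE 0.06, exact permutation p = 0.00794), at 6.19 to 6.49 in null and 6.54 to 6.70 in wild type. Reln, an extracellular protein of cortical and olfactory neurons, was higher in null at that threshold (0.34, SE 0.10, exact permutation p = 0.0159), with null 1 the highest at 10.67. Among the ependymal genes 1 was higher at that threshold, Dnah11 (0.10), which is dim. Of 7 hippocampal, 10 thalamic, 5 basal forebrain cholinergic, 13 cortical and 4 blood genes measured, 0 passed it. Over all 22626 probe sets 3.67% passed that threshold, and 0.623%, like Igfbp2, did not overlap between the labels. No gene of any list passed the adjusted threshold of 0.05.

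**Figure D5:**
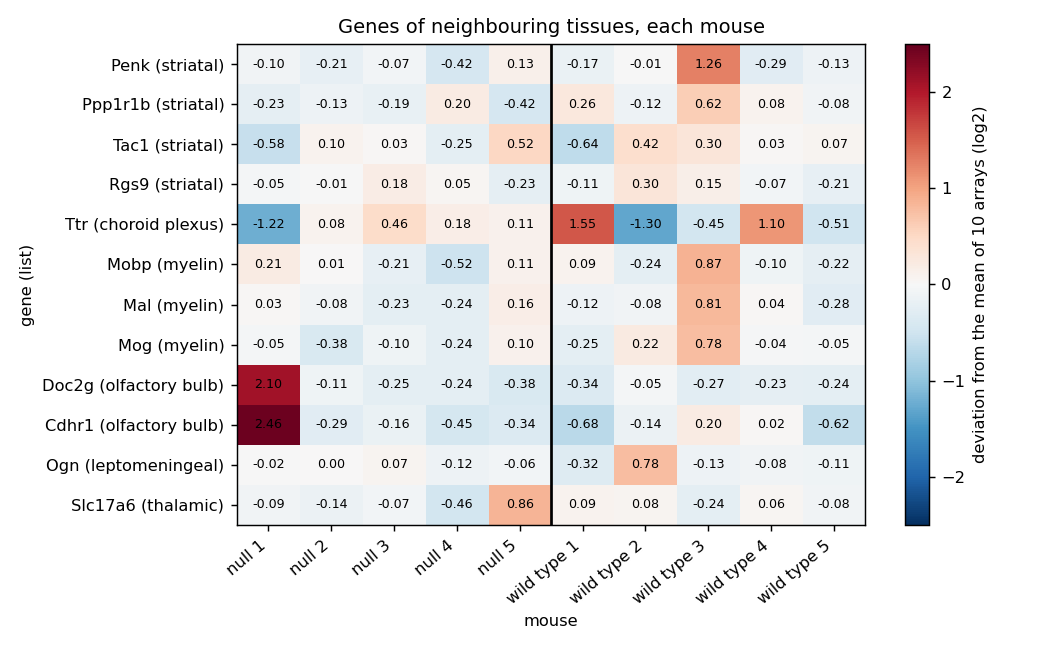
Deviation of each gene (y axis, its list in parentheses) from its mean over the 10 arrays (colour and printed number, log2) in each mouse (x axis, null left of wild type). The 12 genes were chosen after their values were seen. Penk and the 3 myelin genes are high in wild type 3, Ttr in wild type 1 and wild type 4, Doc2g and Cdhr1 in null 1, Ogn in wild type 2 and Slc17a6 in null 5.

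The imbalance between 3′ and 5′ signal, a measure of RNA quality, was read from control probe sets. The 3′ minus 5′ signal of the Gapdh control probe sets was -0.07, 0.12, 0.02, 0.01 and 0.08 in null 1 to 5, against 0.11, 0.27, -0.03, -0.04 and 0.24 in wild type 1 to 5. Wild type 2 and wild type 5 had the largest values, wild type 3 and wild type 4 lay at the low end, and wild type 1, the mouse with the highest Ttr, lay between them. That of the Actb control probe sets was -0.03, 0.17, 0.37, -0.02 and 0.01 in null 1 to 5, against 0.13, 0.18, 0.08, -0.03 and 0.35 in wild type 1 to 5, with null 3 and wild type 5 the highest. The part of RNA quality in the Penk and Ttr values was not tested. Blood genes were dim in every mouse, with an average level between 2.07 and 2.16 in null and between 2.06 and 2.23 in wild type over the 4 measured.

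The probe sets most alike to the striatal mean over the mice, taken within the labels, were those of Rian, a long noncoding RNA (r = 0.93), Gng13, a G protein gamma subunit (0.93), and Rbms1, an RNA-binding protein (0.91), all highest in wild type 3. Those most alike to the choroid plexus mean were Ppt1, a lysosomal thioesterase (0.90), Eipr1 (0.89) and Nt5dc3 (0.87). These are the highest of 7150 candidates over 10 arrays and are given as a description.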

How the data were processed

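The authors deposited log2 expression values made with GC-RMA from Affymetrix mouse arrays, 1 per mouse. GC-RMA models background from the GC content of each probe, quantile-normalizes the arrays and combines the probes of a set. The version of GC-RMA was not given in the sources used here. Samples were grouped by label. Of 22690 probe sets, 64 were controls and not tested. The platform annotation gave 1 gene to 20380 of the 22626 others, several to 691 and none to 1555, and gene order came from assembly GRCm38.p6. Detection calls were not used here.

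Null minus wild type was fitted with limma 3.58.1 in R 4.3.3 (lmFit, eBayes, all 10 arrays, no block), with Benjamini-Hochberg adjustment over all 22626 probe sets and a threshold of 0.05. Single probe sets also had exact two-sided permutation tests of the mean difference. A gene was represented by its brightest probe set, and pairs of the 8 measured genes were correlated with 100000 permutations (Python 3.11.15, SciPy 1.17.1). On simulated data over 22626 probe sets, limma recovered 86 of 100 changes of 1.0 log2 unit and 45 of 100 of 0.5, with 6 false calls. These changes were planted together, only in probe sets with a mean of at least 5, and the noise was drawn independently. Planting many at once eases the adjusted threshold, which 0 probe sets passed in the deposited data. The recovery is therefore not the power for the genes examined here, least for the dim ones and for Ttr. Whether replicate numbers pair the arrays was not settled, and the check is given with the alternatives. The number of arrays and the spread between mice limit the precision, and the low signal of dim probe sets can hide a difference.

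The genes, lists and tests were chosen with earlier results of these data known. The rule for named genes gave every probe set of the chosen genes, the 4 brightest genes of each other list with those at an unadjusted p under 0.05, and the 10 probe sets most alike to each mean. The text names all of the first and a part of the others. Likeness to Penk and Ttr alone, counts of genes by highest array and the genes singled out for being high in 1 mouse were added after the values were seen. Alternatives were the replicate block, median centring, quantile normalization, leaving out means under 5, a floor at 4, a trend with robust prior, array weights, the methods' test, the mean of all probe sets of a gene, and leaving out each array.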

Additional observations from a re-analysis of the deposited data

Results flagged for a closer look

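Among the 24 sets of 5 arrays formed by the 12 probe sets and the labels, 3 held a mouse far from the others of its label, where chance gives about 1 in 20. Penk read 7.69 in wild type 3, with 6.42 the nearest of that label. Ttr was low in null 1, at 5.08 on 1454608_x_at (nearest 6.37) and at 1.82 on 1451580_a_at (nearest 2.01). Both Ttr sets show 1 gene in 1 mouse. Sets from the same mice are not independent, so the 1 in 20 is only a rough guide.

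The same held for 13 of 96 such sets of the other named genes. Null 1 was the highest null mouse for Cdhr1 (5.29, nearest 2.67), Doc2g (5.37, nearest 3.16) and Zic1 (8.03, nearest 7.37), and the lowest for Lct (2.61). Wild type 2 was the highest wild type mouse for Ogn (8.09, nearest 7.23), Cldn3 (3.41, nearest 2.91) and Lbp (3.18, nearest 2.77). Null 4 was the highest null mouse for Lbp (2.86), Slc5a7 (2.24) and Lhx6 (4.31), the first 2 dim. Wild type 1 was the highest wild type mouse for Ntng1 (6.76, nearest 6.60), null 2 the lowest null mouse for Mbp 1433532_a_at (13.7, nearest 13.9), and null 3 the lowest for Hbb-b2 (2.30, dim).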

How the results depend on the processing

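Across the alternatives 0 of the 12 probe sets passed an adjusted p of 0.05. Of 466 values 34 differences or correlations changed sign and 10 counts, SDs or ranges moved, sign changes of the medians over the genes left aside. With array weights 2 passed an unadjusted limma p of 0.05 (Ppp1r1b and Folr1). Leaving out each mouse gave 0 to 1, Ppp1r1b without null 4, wild type 2 or wild type 5. The share of all probe sets passing under these alternatives was not counted, so the counts are not read as a difference between the labels. With the replicate block the count was 0, the difference of Ppp1r1b -0.31 and the SD of Ttr 1.20. Same-numbered mice deviated together with r between 0.0664 and 0.535, and 1 of 5 numbers correlated best with its own. This check cannot settle whether same-numbered mice are littermates. Small differences changed sign: with array weights Drd2 gave 0.034, Rgs9 1418691_at 0.057 and Kl 1423400_at 0.0053, and after quantile normalization Rgs9 1418691_at gave 0.035 and Kl 1451892_at -0.00064. Leaving out each mouse, the difference ran from -0.033 to 0.023 (Drd2), -0.37 to 0.017 (Penk, positive without wild type 3), -0.24 to 0.062 (Tac1), -0.079 to 0.049 (Rgs9 1418691_at), -0.50 to 0.21 (Ttr 1454608_x_at, positive without null 1, wild type 1 or wild type 4), -0.43 to 0.047 (Ttr 1455913_x_at), -0.015 to 0.011 (Kl 1423400_at), -0.0077 to 0.027 (Kl 1451892_at), -0.39 to -0.19 (Ppp1r1b, -0.19 without wild type 3), 0.037 to 0.091 (Folr1), 0.027 to 0.075 (Rgs9 1426033_at) and -0.18 to -0.024 (Ttr 1451580_a_at). The median ran from -0.24 to 0.0058 over the striatal genes and from -0.015 to 0.075 over the choroid plexus genes. The same gave r from -0.58 to 0.066 for Ppp1r1b and Tac1, -0.72 to 0.078 for Tac1 and Ttr, -0.039 to 0.55 for Tac1 and Rgs9 (-0.089 after quantile normalization), -0.80 to 0.66 for Ppp1r1b and Penk, and -0.059 to 0.36 for Penk and Rgs9. Without the 2 farthest mice 1 pair passed the adjusted threshold, Ppp1r1b and Penk (r = -0.94, permutation p adjusted over the 28 pairs = 0.0442). The SD of Penk ran from 0.168 to 0.507 and that of Ttr was 0.602 over the mean of its probe sets. The range of the striatal mean was 0.677, or 0.874 over genes with a mean of at least 5. That of the choroid plexus mean was 0.930, or 2.85 over such genes (Ttr alone) and 0.528 over all probe sets of a gene. With a floor at 4 the dim probe sets gave no value. The causes of these changes were not tested. Dim signal limits Drd2, Kl, Folr1 and most choroid plexus genes.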
